A study of Homo sapiens with 15 samples.

Results

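The comparison asks where the response of MDA-MB-231 cells to P4, a small-molecule CtBP2 inhibitor, departs from their response to silencing of CtBP2 itself. MDA-MB-231 is an established triple-negative breast cancer cell line. For each gene, the mean log2 ratio of treated to control signal on the 5 shCtBP2 arrays was subtracted from that on the 5 P4 arrays, so that 10 of the 15 arrays of the series enter the difference and the 5 HIPP arrays (a related inhibitor) add only to the estimate of the spread. A positive difference means a higher ratio with P4, whichever of the treatments moved the gene. A dye effect that is the same on every array cancels in it. The difference was tested for 27580 genes.

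The P4 cells had received P4, sodium 2-hydrazone-3-phenylpropanoate, for 24 h, and the dose used for the arrays was not given in the sources used here. The shCtBP2 cells were transfected with an shRNA clone against CtBP2 and kept under puromycin selection, so this group is a selected, stably modified culture, whereas the P4 cells were unmodified and exposed for a short time. Treated cRNA was labelled with Cy5 and control cRNA with Cy3 on each array. By the labels the control was untreated cells throughout, while the study's methods describe a scrambled control for shCtBP2, so the control RNA may not have been the same in both groups. The length of exposure, the selection and the control therefore cannot be told apart from the difference between inhibitor and knockdown.

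CtBP1 and CtBP2 are NADH-binding co-regulators that are recruited by DNA-bound transcription factors and bring histone-modifying enzymes to their target genes, mostly to repress them. A compound can act on other proteins besides its target, and cells under chemical stress are known to use a few transcription programmes. One is the integrated stress response, in which the factor ATF4 induces genes for amino acid synthesis, uptake and tRNA charging. Another is the NRF2 response to electrophiles and oxidants, and a further one is the SREBP2 response to low membrane sterol. Metallothioneins, small zinc-binding proteins, are induced by metal ions through the factor MTF1.

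The treated signal stood well above background for 65.2 to 77.5% of the spots, depending on the array. All 6 markers of a mesenchymal triple-negative line (VIM, CD44, AXL, CAV1, MSN and LGALS1) were well above background in the control channel of all 10 arrays. PTPRC and LYZ, which mark leukocytes, LUM and COL3A1, which mark fibroblasts, and the basal keratin genes KRT5 and KRT6B were above background on 0 of the 10. They are 2 of the 5 markers tested on each of these lists, and the other markers were above background on at least some arrays. Among those others, 1 leukocyte marker and 1 basal marker were above it on all 10. Among the 5 lists of cell type markers, CAV1, which encodes caveolin-1, was the only gene that differed between the responses, at −0.91 ± 0.15 (log2 difference ± SE, limma adjusted p = 0.00148). Over all genes 5.79% differed, so 1 call says nothing of the marker lists. Of the 6 luminal markers tested, 5 were well above background in the control channel of all 10 arrays. ESR1, the other, was dim, with 4 of 5 P4 arrays and 2 of 5 shCtBP2 arrays above background in that channel. Of the 6, 0 differed.

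P4 and shCtBP2 arrays shared no slide. P4 replicates 1 to 4 lay on slide 1, which was scanned on another day, P4 replicate 5 on slide 2 and the shCtBP2 arrays on slides 3 and 4. HIPP arrays lay on slides 2 and 3, so a fit with slide as a fixed block gives an indirect estimate of the difference that rests on them. P4 replicate 5 is the sole P4 array scanned on the same day as the shCtBP2 arrays. Where it stands for P4 alone, its spread is assumed to be that of the other groups, and the counts then rest on 1 P4 array. The control channels were compared on their own after normexp correction and normalization within and between arrays. Their P4 minus shCtBP2 difference had an SD of 0.12 over all genes, against 0.31 for the treated channels, and 236 genes differed by 1.5-fold or more in the control channel against 2019 in the treated channel.

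CTBP2, the gene targeted by the hairpin, has 2 probes on chromosome 10 (126667460 to 126667519 and 126671814 to 126671873, build hg17). Its log2 ratio was −0.36, −0.35, −0.59, −0.44 and −0.29 on the shCtBP2 arrays and 0.61, −0.16, −0.22, 0.32 and 0.29 on the P4 arrays. All shCtBP2 ratios lay below all P4 ratios, and the P4 ratios fell on both sides of 0. Against its own control the shCtBP2 mean was 1.33-fold lower and did not pass either threshold (limma adjusted p = 0.0662), so the array values do not themselves show the knockdown, and the term is used here as the labels give it. The study reported lower CtBP2 mRNA and protein in these cells than in scrambled controls, in other assays that were not analysed here. The difference was 0.57 (95% interval 0.16 to 0.99) and missed the threshold (limma adjusted p = 0.0668). The probes differed by 0.20 and 0.95, and with the brighter probe alone the difference passed the test (0.95, limma adjusted p = 0.0312). CTBP1, its paralog on chromosome 4, had a difference of −0.34 (95% interval −0.79 to 0.11, limma adjusted p = 0.342), and its ratios in the groups overlapped.

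At an adjusted p under 0.05 and at least 1.8-fold, 1598 genes differed between the responses, 5.79% of those tested. With P4, 738 genes were higher (2.68%) and 860 were lower (3.12%). The 5 P4 ratios lay entirely above or below the 5 shCtBP2 ratios for 639 of the higher and 697 of the lower genes, and for 13.7% of all genes tested. The median difference over all genes was 0.11, so that the middle of the distribution was not at 0; after normexp correction and loess within arrays it was 0.01. That alternative gave 497 genes (474 shared with the 1598), the treated channels alone gave 584 (458 shared), slide as a fixed block gave 451 (239 shared), and P4 replicate 5 against the shCtBP2 arrays gave 288 (264 shared). On mean signals without background correction 370 genes passed, 57.6% of them higher with P4, against 46.2% in the main comparison.

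**Figure D1:**
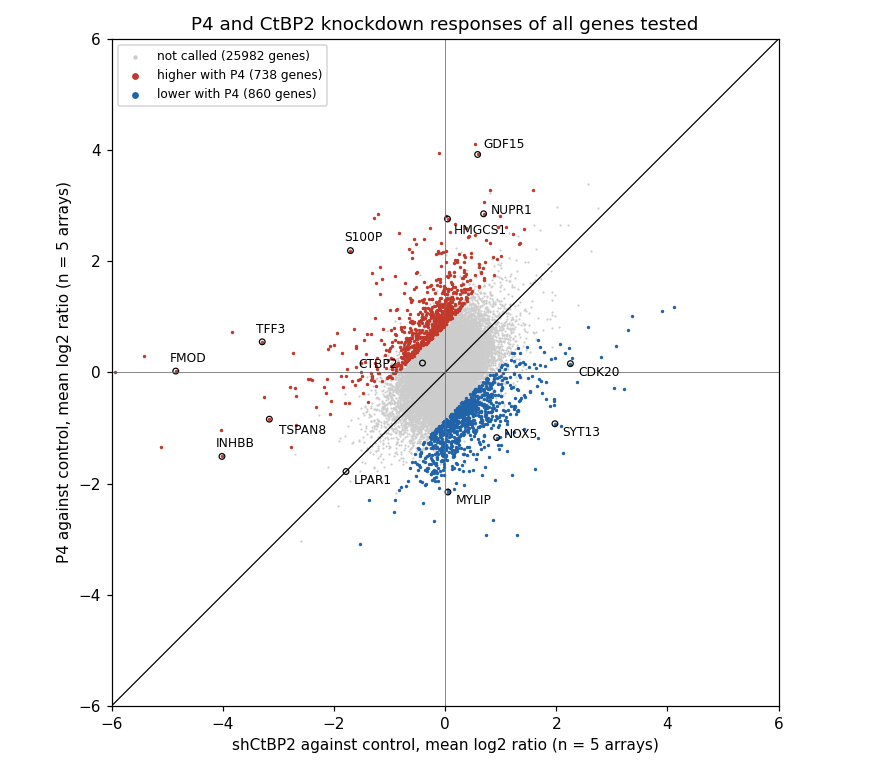
Mean log2 ratio with P4 (vertical axis, n = 5 arrays) against that in shCtBP2 cells (horizontal axis, n = 5 arrays) for the 27580 genes tested; the diagonal marks equal responses. The 738 genes called higher with P4 lie above the diagonal and the 860 called lower with P4 lie below it; LPAR1, on the diagonal, and CTBP2 were not called.

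Each called gene was then sorted by which treatment passed against its own control, at 1.8-fold for P4 and 1.5-fold for shCtBP2. Since the thresholds are unequal, a gene said to be moved by 1 treatment alone may have a smaller change in the other. The sorting also rests on the processing, since after normexp and loess shCtBP2 against control gave 267 genes and P4 gave 563. With slide as a fixed block the counts were 28 and 2172. That fit sets each treatment's mean to slide 1, which held no shCtBP2 array, so these 2 counts cannot show how the sorting depends on slide. Over all genes, 2279 (8.26%) passed for P4 and 1781 (6.46%) for shCtBP2. P4 alone passed for 774 of the 1598 genes (48.4%), 363 higher and 411 lower. CtBP2 knockdown alone passed for 366 (22.9%), where P4 left a higher ratio at 172 genes and a lower one at 194. Both treatments passed in opposite directions for 45 genes (2.82%) and in the same direction by unequal amounts for 40 (2.50%). For the other 373 (23.3%) neither change passed alone, and the difference between them did.

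**Figure D2:**
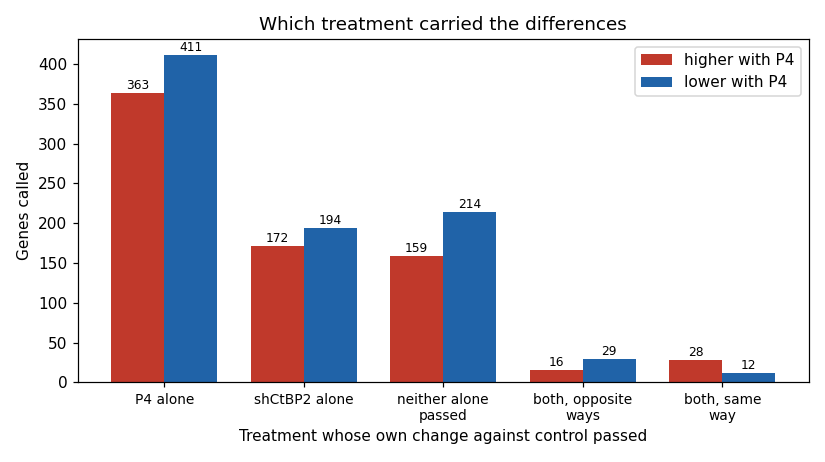
Number of called genes (vertical axis) by the treatment whose own change against control passed, for genes higher (red) and lower (blue) with P4. P4 alone accounts for 363 and 411 genes and CtBP2 knockdown alone for 172 and 194.

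Of 16808 genes well above background on at least 3 of 5 arrays in both channels of both treatments, 1218 were called (7.25%). Among those with a current symbol and no overlap between the groups, the largest positive differences described here were those of 11 genes, S100P, TFF3, GDF15, BOLA1, UNC5B, DHRS2, DHRS3, DIPK1B, CYP1B1, AKR1B10 and HMGCS1. S100P, a calcium-binding protein of the S100 family, led them. Its log2 ratio was 2.13, 2.46, 2.16, 1.88 and 2.31 with P4 and −1.96, −1.5, −2.0, −1.52 and −1.53 in shCtBP2 cells. It was up-regulated on every P4 array and down-regulated on every shCtBP2 array, a difference of 3.89 ± 0.31 (SE, limma adjusted p = 4.12e-06), and 2.82 with slide as a fixed block. The probe of S100P lies on chromosome 4 (6816891 to 6816950, hg17).

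TFF3, a secreted trefoil peptide of mucosal epithelia, showed 0.08, 1.15, 0.60, 0.29 and 0.63 with P4 and −3.01, −2.89, −3.36, −3.57 and −3.62 in shCtBP2 cells. Most of its difference came from the knockdown (3.84 ± 0.21, SE, limma adjusted p = 2.43e-07), and P4 did not pass the fold threshold. BOLA1, a mitochondrial protein linked to iron-sulfur clusters, had the same form, at 0.35 ± 0.23 (SD, n = 5) with P4 and −2.74 ± 1.01 (SD, n = 5) with the knockdown. DIPK1B stood at −0.45 ± 0.36 and −3.25 ± 0.58 (SD, n = 5 each). In TFF3, BOLA1 and DIPK1B the low values were those of the knockdown, and all 5 shCtBP2 ratios lay below the P4 ratios.

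GDF15, a stress-induced cytokine of the TGF-beta superfamily (chromosome 19, 18360890 to 18360949, hg17), showed the opposite form. Its log2 ratio was 3.47, 4.82, 3.70, 4.01 and 3.61 with P4 and 0.01, 0.79, 0.42, 1.09 and 0.61 in shCtBP2 cells. P4 raised it 15.1-fold, while the shCtBP2 ratios, all above 0, did not pass (limma adjusted p = 0.0986). UNC5B, a netrin receptor, AKR1B10, an aldo-keto reductase, and CYP1B1, a cytochrome P450, were likewise up-regulated by P4 alone, with mean ratios of 2.23, 2.16 and 2.40. Their shCtBP2 means were −0.64, −0.60 and −0.37.

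The short-chain dehydrogenases DHRS2 and DHRS3 were up-regulated by P4 and down-regulated by the knockdown. For DHRS2 the means were 1.6 ± 0.22 and −1.25 ± 0.36, and for DHRS3 1.68 ± 0.30 and −1.14 ± 0.34 (SD, n = 5 each). With slide as a fixed block, S100P, TFF3, DHRS2, DIPK1B, CYP1B1 and HMGCS1, 6 of the 11, still passed, and on P4 replicate 5 alone 6 did. All 11 passed after normexp and loess and with the treated channels alone, where some were smaller (after normexp and loess BOLA1 1.48, UNC5B 1.57, DIPK1B 1.19 and DHRS3 1.18).

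The 12 largest negative differences were those of SYT13, HSD11B1, LINGO2, RBM11, SERPINA5, SPOCK1, MYLIP, JAKMIP2, NOX5, CDK20, MDH1B and PDP1, chosen in the same way. SYT13, a member of the synaptotagmin family, had log2 ratios of −1.28, −0.96, −0.40, −1.10 and −0.88 with P4 and 2.01, 2.31, 1.36, 2.11 and 2.09 in shCtBP2 cells. The knockdown raised it and P4 lowered it, and the difference was −2.90 ± 0.28 (SE, limma adjusted p = 2.09e-05). NOX5, a calcium-activated NADPH oxidase, showed −1.46, −1.15, −1.18, −0.76 and −1.32 with P4 and 0.74, 0.89, 1.34, 1.08 and 0.59 with the knockdown. Its groups lay on opposite sides of 0 on all 10 arrays (difference −2.10 ± 0.18, SE, limma adjusted p = 7.53e-06).

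HSD11B1, which regenerates cortisol from cortisone, was down-regulated by P4 (−1.41 ± 0.41, SD, n = 5) and up-regulated by the knockdown (1.12 ± 0.43, SD, n = 5). SERPINA5, the protein C inhibitor, had means of −1.31 and 1.01, LINGO2, a leucine-rich repeat membrane protein, −1.03 and 1.42, and JAKMIP2 −1.09 and 1.11. These 4 genes, with SYT13 and NOX5, passed against control in both treatments and in opposite directions.

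For another 5 genes the knockdown passed against control and P4 did not. CDK20, a cyclin-dependent kinase, had ratios of 2.20, 2.43, 2.15, 2.29 and 2.19 in shCtBP2 cells and 0.38, 0.15, 0.25, −0.17 and 0.18 with P4. It was up-regulated about equally on every shCtBP2 array, 4.77-fold on average, and the P4 ratios stayed near 0. SPOCK1, which encodes the proteoglycan testican-1, stood at 1.81 ± 0.23 with the knockdown and −0.49 ± 0.29 with P4 (SD, n = 5 each). The knockdown means were 1.95 for RBM11, a splicing regulator, 1.31 for MDH1B and 1.29 for PDP1, a phosphatase that activates pyruvate dehydrogenase. The P4 means of SPOCK1, RBM11, MDH1B and PDP1 were below 0, at −0.49, −0.47, −0.70 and −0.69, and so made up part of each difference. With P4, MDH1B ranged from −1.84 to 0.27 and PDP1 from −1.36 to 0.15, and in both the ratios varied more among P4 arrays than among shCtBP2 arrays. MDH1B lost its call without any 1 of 7 arrays. MYLIP, the remaining gene, was moved by P4 alone and is described with the lipid genes. Of these 12 genes, 8 passed with slide as a fixed block and 9 after normexp and loess. The differences were smaller after normexp and loess, at −1.20 for SYT13, −0.87 for NOX5 and −1.21 for CDK20, and SPOCK1 (−0.62), RBM11 (−0.63) and MDH1B (−0.70) did not pass.

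**Figure D3:**
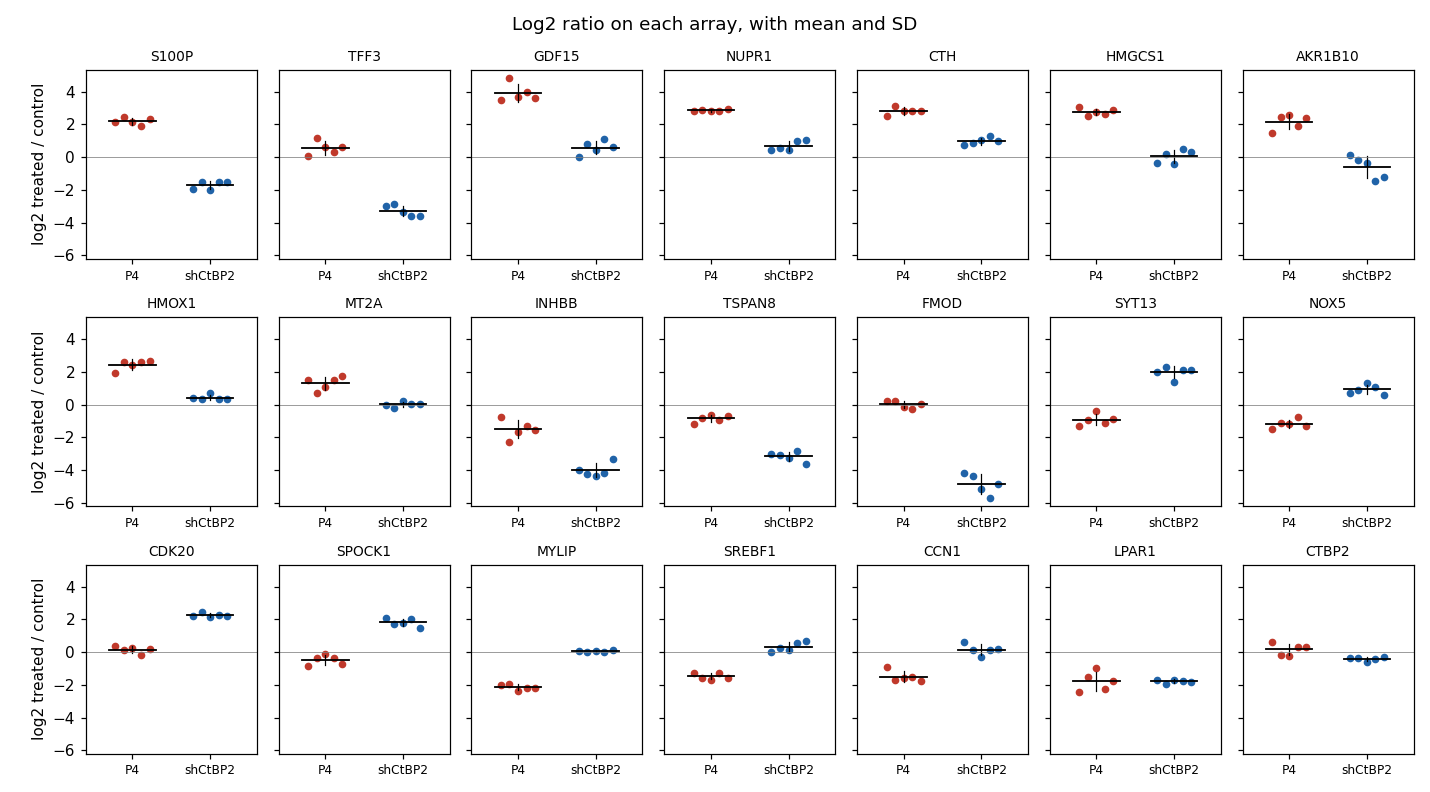
Log2 ratio of treated to control signal (vertical axis) on each of the 5 P4 (red) and 5 shCtBP2 (blue) arrays for 21 genes, with the mean (horizontal line) and SD (vertical line). The groups do not overlap except for LPAR1; S100P lies between 1.88 and 2.46 with P4 and between −2.0 and −1.5 in shCtBP2 cells, and SYT13 and NOX5 lie on opposite sides of 0 the other way round.

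Some of the largest differences belonged to genes whose treated channel was well above background on every array of one treatment and on none of the other, so that the low side has only a bound. The bound compares the treated channels after normexp, loess and quantile normalization between arrays, with a dim signal set no lower than the lowest signal well above background on its array. FMOD, the collagen-binding proteoglycan fibromodulin, was at least 2.23-fold higher with P4. Its log2 ratio was 0.22, 0.25, −0.14, −0.25 and 0.04 with P4 and −4.18, −4.36, −5.14, −5.69 and −4.85 in shCtBP2 cells. The P4 ratios lay about 0 and all shCtBP2 ratios below −4 (limma adjusted p = 6.46e-07 for the difference).

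CSTA, the protease inhibitor cystatin A, was at least 2.03-fold higher with P4, HKDC1, a hexokinase family member, at least 1.42-fold and IL4I1, an amino acid oxidase, at least 1.23-fold. The probes of CSTA differed by 2.18 and 5.59. In the other direction, MED18, a Mediator subunit, was at least 2.44-fold lower with P4, and TMEM266, ZP1 and TTC29 at least 1.59-, 1.53- and 1.43-fold. MED18 had the widest spread of these 8 genes, with P4 ratios from −5.08 to −0.70 and shCtBP2 ratios from −0.36 to 3.17, and its difference moved from −4.21 to −9.24 with slide as a fixed block. After normexp and loess CSTA and FMOD alone of the 8 passed.

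Of 20 regulators of the integrated stress response 19 were tested, 12 were higher with P4, 7 did not pass and 0 were lower, against 2.68% of all genes higher. Their median difference was 1.15 against 0.11 over all genes. The 12 were GDF15, NUPR1, DDIT4, TRIB3, STC2, PPP1R15A, SESN2, JDP2, CHAC1, ATF4, CEBPB and CEBPG. P4 alone passed for 8 of them and both treatments in the same direction for 4. ATF3 (0.81, limma adjusted p = 0.146) and DDIT3 (0.54) did not pass.

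NUPR1, a stress-induced chromatin protein, had log2 ratios of 2.83, 2.85, 2.80, 2.83 and 2.96 with P4 and 0.43, 0.57, 0.44, 1.00 and 1.02 in shCtBP2 cells. Both treatments raised it, P4 by 2.16 ± 0.14 more (SE, limma adjusted p = 8.08e-07). DDIT4, an inhibitor of mTORC1, likewise rose in both, to 2.61 ± 0.26 with P4 and 1.10 ± 0.34 with the knockdown (SD, n = 5 each). ATF4 itself was up-regulated by P4 on all 5 arrays (1.22 to 1.82) and ranged from 0.12 to 0.71 in shCtBP2 cells, a difference of 1.11 ± 0.16 (SE, limma adjusted p = 0.00045). TRIB3, a pseudokinase induced by ATF4, differed by 1.49 ± 0.26 (SE, limma adjusted p = 0.00189), and its difference fell to 0.32 with slide as a fixed block.

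Enzymes of serine, one-carbon and non-essential amino acid metabolism moved with them: 9 of 18 tested were higher with P4 and 0 were lower (median 0.88), where 2.68% of all genes were higher. MTHFD2, the mitochondrial folate dehydrogenase, was up-regulated on each P4 array (1.23 to 1.8) and below 0 on each shCtBP2 array (−0.79 to −0.41). Its difference was 2.07 ± 0.16 (SE, limma adjusted p = 3.81e-06). CTH, which makes cysteine by transsulfuration, had ratios of 2.49, 3.14, 2.79, 2.79 and 2.83 with P4 and 0.76, 0.84, 1.03, 1.31 and 0.97 with the knockdown, and so rose in both. GPT2 (1.45), the mitochondrial alanine aminotransferase, PSAT1 (1.45), of serine synthesis, and ASNS (1.36), asparagine synthetase, rose with P4 alone. The probes of ASNS disagreed, at 0.18 and 2.54. The other called enzymes were ASS1, PYCR1, SHMT2 and ALDH1L2, and PHGDH, the first enzyme of serine synthesis, had a difference of 0.78, inside the fold threshold.

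Of 17 amino acid transporters tested, 5 were higher with P4 and 0 lower (median 0.76), against the same 2.68%. SLC7A5, the large neutral amino acid transporter LAT1, had ratios of 1.45, 1.37, 1.22, 1.83 and 1.5 with P4 and 0.06, −0.22, 0.16, −0.04 and −0.14 in shCtBP2 cells. It rose with P4 alone (difference 1.51 ± 0.15, SE, limma adjusted p = 2.47e-05), as did its heavy chain partner SLC3A2 (1.27), the neutral amino acid exchanger SLC1A4 (1.82) and the cystine transporter SLC7A11 (1.26). SLC36A1, a lysosomal amino acid transporter, passed at 0.92, with P4 replicate 1 at 1.96 and the other P4 arrays between 0.35 and 0.87, and lost its call without any 1 of 6 arrays (0.64 without P4 replicate 1). Of 17 cytosolic aminoacyl-tRNA synthetases, WARS1 (1.25), AARS1 (1.00) and GARS1 (0.97) were higher with P4, 0 were lower, and the median was 0.36 (2.68% of all genes were higher). SLC36A1 (0.13), AARS1 (0.83) and GARS1 (0.78) did not pass after normexp and loess.

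Calls in these 4 groups depended on how slide was modelled. As a random block it left 13, 9, 5 and 3 members called, but the correlation within slides was estimated at −0.057, so that fit does not guard against a slide effect. With slide as a fixed block their medians were 1.42, 0.82, 0.30 and 0.33, and 2, 1, 0 and 0 members passed (NUPR1, ATF4 and CTH). On P4 replicate 5 against the shCtBP2 arrays, the medians were 1.23, 0.87, 0.45 and 0.28, and 5, 6, 2 and 0 members passed. Their median control-channel differences lay between −0.06 and −0.02, with single genes from −0.30 (ASNS) to 0.38 (NUPR1).

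**Figure D4:**
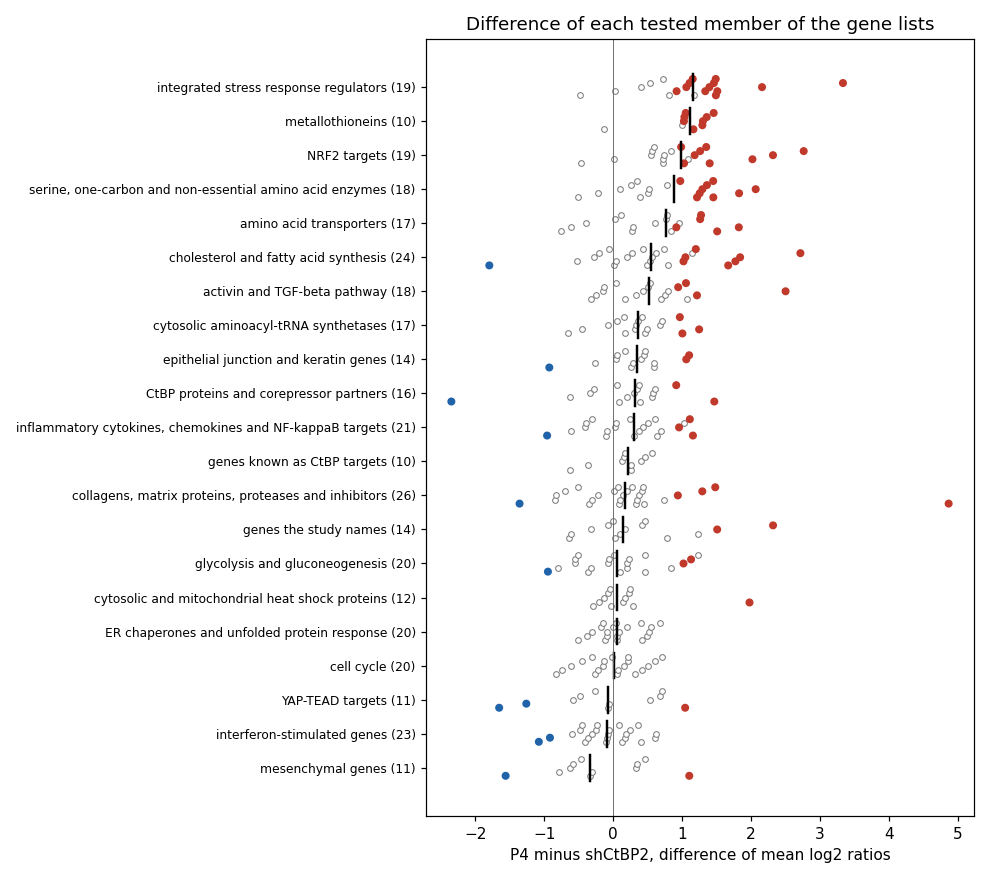
P4 minus shCtBP2 difference of mean log2 ratios (horizontal axis) for each tested member of 21 gene lists (number tested in brackets); filled points passed the test, red higher and blue lower with P4, and the black line is the median. The integrated stress response regulators have 12 of 19 members called higher and a median of 1.15, and the endoplasmic reticulum chaperones have 0 of 20 and a median of 0.05.

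ATF4 binds composite elements read as TGATGNAAN. RefSeq promoter windows (GRCh38.p14, 250 bases before to 50 after the start) were found for 60 of the 77 genes on these 4 lists. The letters occur on either strand in 16 of the 60 (26.7%), against 3.67% of all 27305 windows, and in 4 of the 23 called and 11 of the 32 tested but uncalled genes that have a window. Stretches upstream of 3 called genes are shown with the matching letters in capitals, since they place the element in a synthesis enzyme, a regulator and a tRNA synthetase. ASNS lies on the minus strand at chr7:97872439-97872498, CHAC1 on the plus strand at chr15:40953236-40953295 and AARS1 on the minus strand at chr16:70289660-70289719.
ASNS: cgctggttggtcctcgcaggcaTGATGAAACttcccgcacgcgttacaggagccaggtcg
CHAC1: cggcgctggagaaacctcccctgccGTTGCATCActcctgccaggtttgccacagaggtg
AARS1: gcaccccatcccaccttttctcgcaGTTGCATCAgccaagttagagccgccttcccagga
In CHAC1, which encodes a glutathione-degrading enzyme, and AARS1 the letters stand on the opposite strand. CHAC1 rose in both treatments, with ratios of 1.03 to 2.43 with P4 and 0.32 to 0.92 in shCtBP2 cells. CHAC1, ASNS, ATF4, SLC36A1, SQLE, SKIL, IL24, TIMP1, ABCA1 and MT1E, and genes named only to complete a count, were chosen after their values were seen.

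Few or no chaperone and cell cycle genes passed. Since 5.79% of all genes were called, counts this small say nothing of these lists. Of 20 endoplasmic reticulum chaperones and unfolded protein response genes, 0 passed in either direction, with a median of 0.05 and a range from −0.52 (MANF) to 0.67 (SEL1L). Of 12 heat shock genes, HSPB8, a small heat shock protein, passed (1.97). HSPB8 was above background on 2 of 5 shCtBP2 arrays in the treated channel, and its difference was −0.24 with slide as a fixed block and 0.39 after normexp and loess. Of 20 cell cycle genes 0 passed; TOP2A was at −0.83 (limma adjusted p = 0.0127), inside the fold threshold.

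Of 19 targets of NRF2 tested, 9 were higher with P4, 10 did not pass and 0 were lower, with a median of 0.99 and against 2.68% of all genes higher. The 9 were AKR1B10, ABCC3, HMOX1, PIR, ABCC2, SLC7A11, SRXN1, FTL and OSGIN1. HMOX1, which degrades heme, had ratios of 1.91, 2.61, 2.43, 2.61 and 2.67 with P4 and 0.43, 0.32, 0.69, 0.35 and 0.33 in shCtBP2 cells. Both sets were above 0 on all arrays, and P4 alone passed (difference 2.02 ± 0.19, SE, limma adjusted p = 1.87e-05). ABCC3, a drug and bile salt exporter, rose with P4 (1.16 to 1.94) and fell with the knockdown (−0.98 to −0.48). PIR, an iron-binding nuclear protein, had means of 0.93 and −0.47.

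NQO1 (0.59), GCLM (0.74) and TXNRD1 (1.08, limma adjusted p = 0.0747), commonly used reporters of NRF2, did not pass. With slide as a fixed block the list's median was 0.61 and 2 members passed, and on P4 replicate 5 it was 0.91 and 5 passed. The letters TGACNNNGC occur in 5 of 18 promoter windows of the list, against 13.6% of all windows.

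Of 10 metallothioneins tested, 8 were higher with P4 and 0 lower (median 1.11), against 2.68% of all genes higher. MT2A had ratios of 1.49, 0.72, 1.09, 1.48 and 1.76 with P4 and −0.04, −0.18, 0.21, 0.04 and 0.01 in shCtBP2 cells. It rose with P4 alone, and the shCtBP2 ratios stayed at 0 (difference 1.30 ± 0.17, SE, limma adjusted p = 0.000259). MT1F (1.46), MT1B (1.36) and MT1M (1.29) differed as well, and MT1M stood at 0.70 with P4 (1.63-fold) and −0.59 with the knockdown (1.51-fold), so that the knockdown alone passed its lower fold threshold. MT1E (1.00, just outside the adjusted p threshold) and the brain-type MT3 (−0.14) were not called. With the replicate number as a block MT1E passed (limma adjusted p = 0.0304), so that 9 of the 10 were higher, and in the treated channel alone its difference was 0.03.

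The MT1 genes and MT2A are close copies of each other, so the probes may share signal and the values are uncertain for each gene alone. In this list the control channels differed too. The control signal of MT2A was lower on the P4 arrays by −0.80 (log2), that of MT1E by −0.84 and that of MT1B by −0.52, while that of MT1M was higher by 0.40. The treated-channel difference of MT2A was 0.54, and the list's median was 0.74 in the treated channel alone, where 3 members passed. The part of the control RNA in the result was not tested beyond these values. With slide as a fixed block 4 members passed, with a median of 1.45.

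The promoter of MT2A is shown because its metal response elements, whose core reads TGCACNC, are the known route of induction by zinc. It lies on the plus strand at chr16:56608464-56608543, and 2 matches are in capitals.
MT2A: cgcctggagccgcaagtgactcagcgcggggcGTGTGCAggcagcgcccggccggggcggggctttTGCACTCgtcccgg
This core, added to the motifs after the values were seen, occurs in 5 of 5 windows found for the list and in 11.9% of all windows.

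P4 alone raised 6 genes of cholesterol synthesis, and both treatments raised INSIG1. Of 24 genes of cholesterol and fatty acid synthesis tested, 7 were higher with P4 (among them HMGCS1, MSMO1, SQLE, INSIG1, CYP51A1 and DHCR7; the share over all genes was 2.68%), 1 was lower (SREBF1) and 16 did not pass, with a median of 0.55. HMGCS1, which makes HMG-CoA for the mevalonate pathway, had ratios of 3.04, 2.51, 2.75, 2.64 and 2.87 with P4 and −0.35, 0.18, −0.42, 0.52 and 0.29 in shCtBP2 cells. The knockdown ratios fell on both sides of 0, and the difference was 2.72 ± 0.19 (SE, limma adjusted p = 1.09e-06). MSMO1 and SQLE, which act later in the pathway, differed by 1.84 and 1.67.

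When slide was a fixed block 6 members were higher, 0 were lower and the median was 0.83. The difference of HMGCS1 was then 2.82. On P4 replicate 5 against the shCtBP2 arrays 3 members were higher and 1 lower.

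SREBF1, which encodes the fatty acid regulator SREBP1, moved against its list. Its ratios were −1.27, −1.56, −1.68, −1.25 and −1.57 with P4 and −0.01, 0.27, 0.16, 0.54 and 0.69 in shCtBP2 cells. P4 lowered it on all arrays, and the difference was −1.80 ± 0.19 (SE, limma adjusted p = 3.28e-05) and −1.16 with slide as a fixed block, where it did not pass. FASN (−0.53), fatty acid synthase, and SCD (0.01), stearoyl-CoA desaturase, did not pass.

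MYLIP, a ubiquitin ligase that degrades the LDL receptor, was the lipid gene among the 12 largest negative differences. Its ratios were −2.03, −1.94, −2.40, −2.21 and −2.18 with P4 and 0.07, 0.00, 0.06, 0.01 and 0.12 with the knockdown. The knockdown left it at the control level on each array (difference −2.20 ± 0.14, SE, limma adjusted p = 6.46e-07, and −2.04 with slide as a fixed block). SREBF1 and MYLIP are known targets of liver X receptors, the sterol-sensing nuclear receptors, and for this reason 8 such targets were looked up after the values were seen. MYLIP, ABCA1 (−1.97), SREBF1, ABCG1 (−1.55) and LPCAT3 (−1.41) were lower with P4, and SMPDL3A (−0.71), NR1H3 (−0.05) and SCD did not pass. Since SREBF1 and MYLIP prompted the list, the 5 of 8 (3.12% of all genes were lower) and the median partly restate them. ABCA1, the cholesterol exporter, had 3 probes that disagreed, from −3.95 to 0.0055. With slide as a fixed block 2 of the 8 passed and the median was −1.65, against −1.48 without it. After normexp and loess 2 of the 8 passed as well, with a median of −0.61, and with the treated channels alone 2 did, with a median of −0.67. ABCA1 was then at −0.75 and −0.77, and SREBF1 at −1.72 and −1.70.

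Among 20 genes of glycolysis and gluconeogenesis, 11 differences were positive and 9 negative, with a median of 0.06. PCK2 (1.13), the mitochondrial phosphoenolpyruvate carboxykinase, and SLC16A1 (1.02, and 0.72 without a call after normexp and loess), a lactate transporter, were higher with P4, and PC (−0.95), pyruvate carboxylase, was lower, against 2.68% and 3.12% of all genes. None of the 3 passed with slide as a fixed block, where PCK2 was at 0.37. LDHA, lactate dehydrogenase A, was at −0.80 (limma adjusted p = 0.00315), inside the fold threshold. FBP1, a gluconeogenic phosphatase named by the study, had means of −1.47 ± 0.96 with P4 and −2.70 ± 0.47 in shCtBP2 cells (SD, n = 5 each). Its difference of 1.23 missed the threshold (limma adjusted p = 0.0501) and passed with the replicate number as a block (limma adjusted p = 0.039). Its treated signal was above background on 1 of 5 P4 and 0 of 5 shCtBP2 arrays, so neither value measures a difference between the treatments, and after normexp and loess it was 0.02.

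Of 23 interferon-stimulated genes tested, IFIT3 and IFIT1 were lower with P4 and 0 were higher (median −0.09). The share is to be read against the 3.12% of all genes that were lower, and with 2 genes it says nothing of the list. IFIT3 had ratios of −2.03, −2.02, −1.45, −1.43 and −1.65 with P4 and 0.28, −1.19, −0.22, −1.23 and −0.83 in shCtBP2 cells. It fell in both treatments, with shCtBP2 replicate 1 above 0, and differed by −1.08 ± 0.27 (SE, limma adjusted p = 0.0177). IFIT1, at −0.92 (limma adjusted p = 0.0391), overlapped, since shCtBP2 replicate 4 stood at −1.40 and the P4 ratios reached from −1.58 to −1.33, and it lost its call without any 1 of 8 arrays. Neither passed with slide as a fixed block.

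The interferon-stimulated response element was searched on both strands as GAAA repeated after 2 unspecified bases, which occurs in 15 of 21 promoter windows of the list and in 3.65% of all windows. Both called genes have it, and their stretches are shown, with the element, which reads on the opposite strand, in capitals, at chr10:89392493-89392552 for IFIT1 and chr10:89327827-89327896 for IFIT3 (plus strand).
IFIT1: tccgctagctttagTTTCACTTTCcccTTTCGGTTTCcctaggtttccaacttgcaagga
IFIT3: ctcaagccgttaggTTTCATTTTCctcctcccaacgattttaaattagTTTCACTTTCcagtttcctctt
The 13 tested genes with the element include 11 that did not pass.

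Among 21 cytokines, chemokines and NF-kappaB targets, PTGS2 (1.16), the inducible cyclooxygenase, CXCL3 (1.11), a neutrophil chemokine, and IL24 (0.96) were higher with P4, against 2.68% of all genes. None of the 3 passed after normexp and loess (0.72, 0.44 and 0.15), with the treated channels alone, with slide as a fixed block or on P4 replicate 5. IL11 (−0.96), an interleukin-6 family cytokine, was lower, since the knockdown raised it and P4 did not pass. The probes of CXCL3 differed by 0.45 and 1.77, its difference was −0.54 with slide as a fixed block, and the treated signal of IL24 was above background on 0 of 5 shCtBP2 arrays. CXCL3 lost its call without any 1 of 7 arrays and IL24 without any 1 of 6.

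In the activin and TGF-beta pathway, 4 of 18 genes were higher with P4 and 0 were lower (median 0.52), against 2.68% of all genes higher. INHBB, the activin beta B subunit, fell in both treatments, to −0.76, −2.27, −1.67, −1.30 and −1.56 with P4 and to −4.0, −4.23, −4.35, −4.19 and −3.30 with the knockdown. The knockdown lowered it more on every array (difference 2.50 ± 0.30, SE, limma adjusted p = 0.000119). SMAD7 (1.22), an inhibitor of the pathway, and ID2 (1.06), a helix-loop-helix inhibitor, passed for the knockdown alone, at −0.60 and −0.79, with P4 means of 0.61 and 0.27. SKIL (0.94), a SMAD co-repressor, rose with P4, on 4 of the 5 P4 arrays to between 0.96 and 1.28, with 0.10 on the other, which overlapped the shCtBP2 ratios, and lost its call without any 1 of 7 arrays. With slide as a fixed block 0 of the 4 passed, and after normexp and loess INHBB alone did (1.51).

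Of 11 targets of YAP and TEAD, 1 was higher and 2 were lower with P4 (median difference −0.08, with median ratios of −0.40 for P4 and −0.27 for shCtBP2). Over all genes 2.68% were higher and 3.12% lower. The matricellular genes CCN1 and CCN2 were lower with P4, at −1.66 ± 0.20 and −1.26 ± 0.27 (SE, limma adjusted p = 0.000132 and 0.00777), and AREG, an EGF receptor ligand, was higher at 1.04. CCN1 showed −0.94, −1.71, −1.60, −1.52 and −1.74 with P4 and 0.63, 0.15, −0.32, 0.13 and 0.18 in shCtBP2 cells. P4 alone lowered it. CCN2 was lowered by P4 alone too, but its groups overlapped, at −0.86 with P4 replicate 3 and −1.05 with shCtBP2 replicate 2. The difference of AREG was −0.19 with slide as a fixed block, and its call was lost without any 1 of 9 arrays. CCN1 (−2.45) was the 1 gene of the list that passed with that block.

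Of 14 epithelial junction and keratin genes tested, 2 were higher with P4 and 1 was lower, and 12 differences were positive (median 0.34). Of 11 mesenchymal genes, 1 was higher and 1 lower, and 4 differences were positive (median −0.33). Over all genes 2.68% were higher and 3.12% lower. CLDN1 (1.10), a tight junction claudin, and KRT7 (1.06), a simple epithelial keratin, were down-regulated by the knockdown alone and so stood higher with P4. CLDN1 did not pass after normexp and loess (0.16) or with the treated channels alone (0.18), while KRT7 did in both. No call on the epithelial and mesenchymal lists held with slide as a fixed block. CLDN7 (−0.93) was raised by the knockdown alone, and its call was lost without any 1 of 4 arrays. SNAI2 (1.10), a repressor of epithelial genes, was higher with P4 with overlap between the groups, and CDH11 (−1.56), a mesenchymal cadherin, was lower, with ratios from −1.89 to −1.33 with P4 and from −0.74 to 0.77 with the knockdown. Of the 26 matrix genes tested, FMOD, COL5A1 (1.48), LOX (1.29) and TIMP1 (0.94) were higher and COL8A1 (−1.36) was lower, against 2.68% and 3.12% of all genes, and with slide as a fixed block FMOD alone passed. LOX, which crosslinks collagen, rose with P4 alone, and COL5A1, a fibrillar collagen chain, passed for the knockdown alone (−0.90, with 0.58 for P4). CLDN7 (−0.68), SNAI2 (0.70), COL5A1 (0.77) and TIMP1 (0.83) did not pass after normexp and loess.

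CtBP proteins and their corepressor partners had 2 of 16 genes higher and 1 lower with P4 (median 0.32), against 2.68% and 3.12% of all genes. TGIF1 (1.47), a homeodomain repressor, rose with P4. KLF3 (0.91), a repressor that binds CtBP, differed although neither treatment alone passed, and after normexp and loess it was at 0.22 and did not pass. KLF8 (−2.35), another CtBP-binding factor, rose in both treatments, to between 0.71 and 1.31 with P4 and between 1.90 and 4.61 in shCtBP2 cells, and its control signal was above background on 2 P4 arrays and 1 shCtBP2 array. It was at −0.70 after normexp and loess and did not pass, so that TGIF1 was then the 1 gene of the list called. Of 10 genes known as CtBP targets, among them CDH1, BRCA1, TIAM1 and PMAIP1, 0 passed, with differences from −0.63 to 0.56. Since 5.79% of all genes passed, 0 of 10 says nothing of CtBP targets as a group.

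Of 14 genes discussed by the study that were listed for this comparison, most of them picked from these arrays, 2 differed, where 5.79% of all genes did. TSPAN8, a tetraspanin, was down-regulated by the knockdown, while its mean with P4, 1.79-fold below control, fell just short of the fold threshold. Its ratios were −1.17, −0.81, −0.61, −0.95 and −0.67 with P4 and −3.01, −3.10, −3.24, −2.86 and −3.6 in shCtBP2 cells. The difference was 2.32 ± 0.23 (SE, limma adjusted p = 2.15e-05). SLC7A5 was the other. The study describes down-regulation of an amino acid transporter that it names LAT1 or LAT, whereas SLC7A5 rose with P4 on these arrays and stayed near 0 in shCtBP2 cells. Which gene the name LAT stands for cannot be told from the study's text. The treated signal of TSPAN8 was above background on 3 of 5 shCtBP2 arrays, and its difference was 0.52 after normexp and loess and 0.56 with the treated channels alone, where it did not pass. SLC7A5 kept its call in both, at 1.26 each. Neither passed with slide as a fixed block (2.33 and 1.73).

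For LPAR1, a lysophosphatidic acid receptor, the mean ratios of −1.78 ± 0.59 and −1.78 ± 0.12 (SD, n = 5 each) gave a difference of −0.00069. Its 95% interval, −0.77 to 0.77, does not exclude a 1.5-fold difference in either direction. ANKRD1, a YAP target, differed by −0.08 (95% interval −0.62 to 0.45) and FST, the activin antagonist follistatin, by −0.32 (−0.97 to 0.32). The shCtBP2 ratios of LPAR1 spanned −1.97 to −1.68 and its P4 ratios −2.46 to −0.96, so that P4 varied more. Under the slide block the differences were −0.74 for LPAR1, −0.56 for ANKRD1 and 1.12 for FST, and 0 of the 3 passed.

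**Figure D5:**
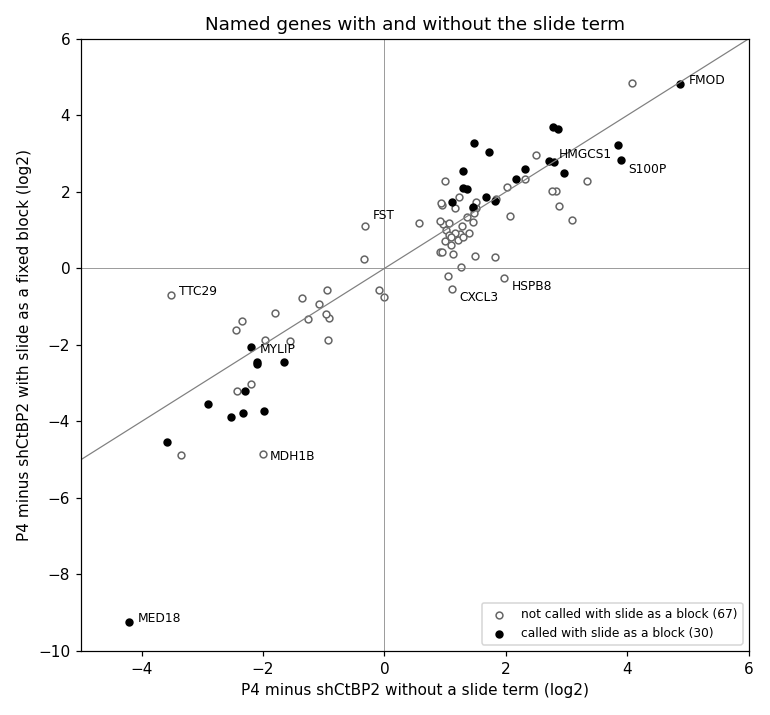
P4 minus shCtBP2 difference (log2) of the 97 genes named, without a slide term (horizontal axis) and with slide as a fixed block (vertical axis); the diagonal marks equal values. With the slide term 30 of the genes passed (filled) and 67 did not (open); MYLIP, HMGCS1 and FMOD lie near the diagonal, while HSPB8, CXCL3, TTC29 and MED18 lie away from it.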

How the data were processed

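The arrays were 2-colour Agilent whole human genome arrays of MDA-MB-231 cells. The authors extracted them with Agilent Feature Extraction, which subtracted background and corrected dye differences, and deposited the processed signal intensities per spot with a log10 ratio table; no dyes were swapped. The log2 ratio of Cy5 (treated) over Cy3 (control) processed signal was taken per spot. Flagged spots (78 to 265 of 43376 per array) were left out, and spots of a probe and then probes of a gene were averaged. The log10 ratios of the deposited table matched those of the scanner files within 0.005 and served as an alternative. Of 41000 probes, 23865 were named by RefSeq accession, 2004 by symbol and 962 by an older symbol (GRCh38.p14), and coordinates are those of the array annotation (hg17). Genes needed 3 of 5 arrays in each treatment, and the 11% of lowest interquartile range were removed.

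limma (version 3.58.1, R 4.3.3) was fitted to all 15 arrays with a mean per treatment, and the contrast P4 minus shCtBP2 was tested with Benjamini-Hochberg adjustment over all genes; called means an adjusted p under 0.05 and at least 1.8-fold. The same fit gave each treatment against control. The fit was tested on simulated data. p-values measure the spread between these arrays, whose number limits the precision. Same-numbered P4 and shCtBP2 arrays deviated together (correlation over genes 0.161, 0.347, 0.24, 0.135 and 0.161), but 7 of 20 differently numbered pairs also exceeded 0.1 (range −0.259 to 0.192). Those 7 joined replicates 1 and 2, or replicates 3, 4 and 5, and among the shCtBP2 arrays this division is that between slides 3 and 4. The correlations therefore do not show that arrays were paired by number. The main comparison did not pair them, and the replicate block is an alternative. The members and gene lists were chosen with earlier results of these data known, and list counts carry no test. Genes were named by rule: the 12 largest differences each way among called, non-overlapping genes above background, up to 4 each way with a bound, up to 4 members per list with any called member opposing it, and the genes the study names with CTBP1 and CTBP2. Of the 121 genes so named, 87 are described, with 10 outside the rule; some items are not reported here.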

Additional observations from a re-analysis of the deposited data

Results flagged for a closer look

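Among the genes named, 11 passed against control in both treatments in opposite directions, with every P4 ratio on one side of 0 and every shCtBP2 ratio on the other, and their differences were tested in the main comparison. Those higher with P4 were S100P (3.89), DHRS2 (2.86), DHRS3 (2.82) and ABCC3 (2.32). Those lower with P4 were SYT13 (−2.90), HSD11B1 (−2.52), LINGO2 (−2.45), SERPINA5 (−2.33), JAKMIP2 (−2.20) and NOX5 (−2.10), with TMEM266 (−3.58), whose treated signal was above background on 0 of 5 P4 arrays and whose control signal was on 2 of 5 P4 and 1 of 5 shCtBP2 arrays, so that for it the bound of 1.59-fold alone holds. In 8 of the 194 sets of 5 ratios examined, 1 array stood apart by Dixon's test at 95%, where chance alone sets apart about 1 in 20. On P4 replicate 1 these were CCN1 (−0.94), SKIL (0.10) and SLC3A2 (0.63), and on P4 replicate 2 DIPK1B (−1.06). In shCtBP2 cells they were TMEM266 (2.50, replicate 2), MT1B (0.18, replicate 3), MT1F (−0.65, replicate 4) and COL8A1 (0.58, replicate 5).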

How the results depend on the processing

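Of the 97 genes named, 90 kept 1 direction under all alternatives, and 18 of the 90 called passed under all of them. The count of 1598 (738 higher and 860 lower with P4) became 497 (239 and 258) with normexp and loess, 370 (213 and 157) on mean signals, 584 (282 and 302) with treated channels alone, 451 (196 and 255) with slide as a fixed block, 288 (151 and 137) on P4 replicate 5 alone, 2676 (1374 and 1302) at 1.5-fold and 3296 (1810 and 1486) at any fold. Leaving out 1 array gave 1292 to 1728. The slide as a random block gave 1764, the replicate block 1823, which added the calls of FBP1 and MT1E and changed no other call of a named gene, and centring each array on its median ratio, chosen after the data were seen, 1556. The 84 list members called became 19 with the slide block, 35 on P4 replicate 5 and 128 at any fold. P4 against control gave 2279 genes, and 563 with normexp, 658 on mean signals, 1405 among genes above background, 4520 at 1.5-fold, 7878 at any fold and 367 on replicate 5. For shCtBP2 the count of 1781 became 267 with normexp, 306 on mean signals and 3408 at any fold. The 28 genes with the slide block refer to slide 1, which held no shCtBP2 array, and so do not measure the shCtBP2 response. CTBP2 passed with its brighter probe (0.95). Directions turned with the slide block for CXCL3 (−0.54), AREG (−0.19), HSPB8 (−0.24), FST (1.12) and CTBP1 (0.24). LPAR1 was 0.052 on mean signals, 0.032 with the random block and 0.026 on P4 replicate 5, and −0.21 to 0.17 when 1 array was left out, where ANKRD1 was −0.27 to 0.10. The call of 11 named genes was lost without 1 array, namely AREG, CLDN7, CXCL3, IFIT1, IL24, MDH1B, SKIL and SLC36A1 for 4 to 9 arrays each, and KLF3 (0.82 without shCtBP2 replicate 2), PC (−0.83 without P4 replicate 2) and TIMP1 (0.82 without P4 replicate 4) for 1. The cause was not tested. Dim signals limit the fold changes of genes with a bound.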
